A study of Homo sapiens with 4 samples.

Results

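PFKFB4, NDRG1 and ADM are 3 genes whose transcripts rise when cells are short of oxygen, and they are described here across the 4 RNA-seq libraries of a PHF19 overexpression experiment. They were picked by gene name from the deposited table, in which they are 3 of 1232 genes. The libraries came from AMO1, an established human multiple myeloma cell line. One group, PHF19_OE (2 libraries), was transduced by lentivirus to overexpress PHF19, a reader of methylated histone H3 in the Polycomb system, and the other, EV (2 libraries), received the empty vector. Both groups carried the PCDH vector, so that every library comes from transduced cells of the same line. Nothing in the labels says that replicates were separate cultures, and the labels give no oxygen level. In bulk RNA such as this, fewer expressing cells and less RNA per cell cannot be told apart.

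Library totals, recovered from the deposited FPKM values (fragments scaled to gene length and to the reads counted), were 23835805 and 28156519 reads in the PHF19_OE libraries and 35258920 and 29461022 in the EV libraries. Every gene in the table has a p-value below 0.05 in the comparison the authors made, so that a group difference is the condition for being in it. Genes outside it were not analysed here. PHF19 was higher in both PHF19_OE libraries, at normalized counts of 9670 and 8777, against 1842 and 4506 in the EV libraries. Its group mean was 2.91-fold higher in PHF19_OE cells. For PHF19 the authors' comparison gave a log2 fold change of 1.54, a p-value of 0.00185 and an adjusted p of 0.0897. The overexpressed gene itself therefore missed an adjusted p of 0.05. The EV libraries stood apart from each other, with replicate 1 exceeding replicate 2 by more than 2-fold in 501 listed genes (40.7%) and the reverse in 190 (15.4%). Each result below is therefore given against both EV libraries together and against each alone.

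When oxygen falls, hypoxia-inducible factors (HIF) escape the prolyl hydroxylases that mark them for destruction and bind hypoxia response elements near their target genes. Among the targets are glycolytic regulators, which let cells make ATP with less oxygen, and secreted factors that act on blood vessels. The bone marrow in which myeloma grows is a low-oxygen tissue. PFKFB4 encodes a bifunctional enzyme that sets the level of the sugar phosphate that activates phosphofructokinase, a control point of glycolysis. NDRG1 encodes a cytoplasmic stress-response protein, induced by hypoxia and by iron depletion and repressed by N-Myc. ADM encodes adrenomedullin, a secreted vasodilator peptide that signals through the receptor CALCRL together with RAMP proteins.

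The core of a hypoxia response element was searched as ACGTG or GCGTG on both strands, in the 300 bases from 250 before to 50 after each RefSeq start site (GRCh38.p14). ACGTG and its reverse complement overlap in 4 letters, so that both strands can be counted at a single palindrome. PFKFB4 and ADM had promoter entries, and each held a single match, to GCGTG on the gene's own strand. These stretches are shown because both genes are named as hypoxia-responsive, with the matched letters in capitals. The PFKFB4 stretch is at chr3:48556953-48556981 on the minus strand, with the match beginning 166 bases before the start site. The ADM stretch is at chr11:10304960-10304988 on the plus strand, with the match beginning 101 bases before the start site. Both stretches lie inside the deposited gene spans, 48517684 to 48562015 for PFKFB4 and 10304680 to 10307397 for ADM. These spans begin upstream of the RefSeq start sites used here.
PFKFB4: tgagttgggcatGCGTGgtcggaggccgg
ADM: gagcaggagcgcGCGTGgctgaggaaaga
A match was present in 48.4% of all 35116 promoter windows of this length, so a short match of this kind is common. It describes letters in the window, and the RNA counts do not show whether a factor binds there.

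All 3 genes were lower in both PHF19_OE libraries than in both EV libraries, and PFKFB4 fell past the threshold, an adjusted p of 0.05. That is 1 of 3 genes called, beside 1.74% of the 16881 genes over which the authors adjusted (1.07% called lower) and 23.8% of the listed genes (14.7% called lower). The groups did not overlap in 3 of 3 genes, as was the case for 90.5% of all listed genes in either direction and for 54.3% in the lower direction. Selection by the same comparison favours both, so neither count sets the 3 genes apart. The genes differed in how far the EV libraries agreed: PFKFB4 was highest in EV replicate 1, ADM in EV replicate 2, and NDRG1 was nearly level between them.

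**Figure D1:**
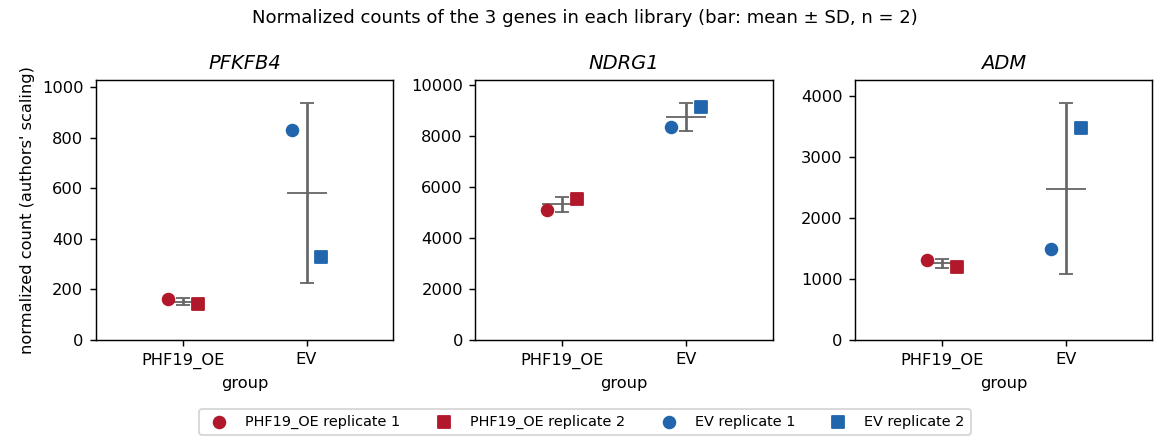
Normalized counts (y axes, starting at 0) of PFKFB4, NDRG1 and ADM in each PHF19_OE and EV library, with bars for the mean ± SD of 2 libraries. The PHF19_OE points lie close together in each panel and below both EV points, and the EV points are far apart for PFKFB4 (832 and 328) and ADM (1488 and 3475) but not for NDRG1 (8343 and 9115).

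PFKFB4 (ENSG00000114268; chromosome 3, 48517684 to 48562015, minus strand, hg38) had 135 and 138 reads in the PHF19_OE libraries and 1050 and 335 in the EV libraries. After the authors' scaling, normalized counts were 162 and 141 in the PHF19_OE libraries, against 832 and 328 in the EV libraries. Both PHF19_OE libraries were low, EV replicate 2 was intermediate and EV replicate 1 was high. The PHF19_OE mean was 152 ± 14.8 and the EV mean 580 ± 356 normalized counts (SD, n = 2 each), a 3.82-fold lower mean in PHF19_OE cells. The lowest EV library still stood 2.02-fold above the highest PHF19_OE library.

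The authors' deposited table gives PFKFB4 a log2 fold change of -1.93 (PHF19_OE over EV), a p-value of 0.000694 and an adjusted p of 0.0426. The size of this fall depended on the EV library used. The PHF19_OE mean was 5.48-fold below EV replicate 1 and 2.16-fold below EV replicate 2. On the counts in the table, edgeR's quasi-likelihood test gave a log2 fold change of -1.11 without EV replicate 1 and of -2.45 without EV replicate 2, with adjusted p of 0.439 and 3.97e-07. With all 4 libraries and the authors' size factors, that test gave an unadjusted p of 0.0280 and an adjusted p of 1, and DESeq2 gave 0.00970 and 0.527, so the call rests on the authors' test. Both tools took their spread from the listed genes alone. PFKFB4 shares 289 bases at the upstream end of its deposited span with UCN2 on the same strand, and it contains MIR6823. Reads in the shared bases cannot be assigned to a single gene with certainty.

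NDRG1 (ENSG00000104419; chromosome 8, 133237171 to 133302022, minus strand) had 4253 and 5401 reads in the PHF19_OE libraries and 10533 and 9322 in the EV libraries. Its normalized counts were 5111 and 5527 in the PHF19_OE libraries, against 8343 and 9115 in the EV libraries. The libraries of each group lay close together, and the gap between the groups was wider than either pair. The means were 5319 ± 295 in PHF19_OE cells and 8729 ± 546 in EV cells (SD, n = 2 each), 1.64-fold lower in PHF19_OE cells. The lowest EV library was 1.51-fold above the highest PHF19_OE library.

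The authors' deposited table gives NDRG1 a log2 fold change of -0.71, with a p-value of 0.0453 and an adjusted p of 0.670, which missed the threshold. NDRG1 was 1.57-fold below EV replicate 1 and 1.71-fold below EV replicate 2, the smallest spread between the EV comparisons among the 3 genes. The sign of NDRG1's log2 fold change held under the authors' size factors and changed only with factors computed from the listed genes. It was -0.19 with TMM factors from the listed genes, and it turned to 0.13 with DESeq2's size factors from the listed genes. Every listed gene was selected for a group difference, so such factors absorb part of that difference and cannot decide the direction. The median shift per listed gene, from the same tool with the authors' factors, was 0.57 with TMM and 0.96 with DESeq2's factors, and 63.6% of the listed genes had a lower mean in PHF19_OE cells under the authors' scaling. The median over the 1232 listed genes was -1.33 with the authors' scaling and -0.31 with DESeq2's factors. With TMM it was -0.63 over the 1066 listed genes that passed edgeR's filter, where edgeR with the authors' size factors gave -1.24. Relative to these medians, NDRG1 stood at 0.62 with the authors' scaling (from -1.33), 0.44 with TMM and 0.43 with DESeq2's factors. NDRG1 was thus less lowered than the typical listed gene under each.

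ADM (ENSG00000148926; chromosome 11, 10304680 to 10307397, plus strand) had 1091 and 1172 reads in the PHF19_OE libraries and 1879 and 3554 in the EV libraries. Its normalized counts were 1311 and 1199 in the PHF19_OE libraries, against 1488 and 3475 in the EV libraries. EV replicate 1 stood just above the PHF19_OE libraries and EV replicate 2 well above all others. The means were 1255 ± 78.9 in PHF19_OE cells and 2482 ± 1405 in EV cells (SD, n = 2 each), 1.98-fold lower in PHF19_OE cells. The difference of the means was smaller than the SD of the EV pair, and the lowest EV library was only 1.14-fold above the highest PHF19_OE library.

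In the authors' deposited table ADM had a log2 fold change of -0.98, a p-value of 0.0468 and an adjusted p of 0.676, so it did not pass. The PHF19_OE mean was 1.19-fold below EV replicate 1 and 2.77-fold below EV replicate 2. Without EV replicate 1, edgeR's quasi-likelihood test put the log2 fold change at -1.47 with an adjusted p of 4.63e-05, and without EV replicate 2 at -0.25 with an adjusted p of 1. With a single EV library the PHF19_OE pair is the sole source of spread between replicates. For ADM that pair differed by 1.09-fold, and the test draws each gene's spread toward that of the listed genes. The lone EV library is assumed to vary as the PHF19_OE libraries do. The low adjusted p of ADM without EV replicate 1, and that of PFKFB4 without EV replicate 2, therefore take no account of the spread between EV libraries.

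Levels per gene length ordered the genes differently in 1 library. In FPKM, NDRG1 stood at 18.2 and 19.5 in the PHF19_OE libraries and at 30.4 and 32.2 in the EV libraries. ADM stood at 16.8 and 15.3 FPKM in the PHF19_OE libraries and at 19.6 and 44.4 in the EV libraries. PFKFB4 stood at 0.927 and 0.803 FPKM in the PHF19_OE libraries and at 4.88 and 1.86 in the EV libraries. NDRG1 was highest, ADM second and PFKFB4 lowest in 3 of the 4 libraries, and in EV replicate 2 ADM exceeded NDRG1. The mean FPKM levels of NDRG1 and ADM in EV cells, 31.3 ± 1.27 and 32.0 ± 17.5 (SD, n = 2 each), did not differ beyond their spread, and PFKFB4 lay below both at 3.37 ± 2.13. In PHF19_OE cells the mean FPKM levels were 18.8 ± 0.964 for NDRG1, 16.1 ± 1.08 for ADM and 0.865 ± 0.0883 for PFKFB4 (SD, n = 2 each).

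The EV libraries were then set against each other, gene by gene. In normalized counts PFKFB4 stood 2.54-fold higher in EV replicate 1 than in the other EV library, with a 95% counting interval of 2.24 to 2.88, and 2.62-fold higher in FPKM. ADM was the other way, 2.33-fold higher in EV replicate 2 (95% counting interval 2.21 to 2.47), and 2.26-fold in FPKM. NDRG1 was 1.09-fold higher in EV replicate 2 (1.06 to 1.12), and 1.06-fold in FPKM. These intervals are exact binomial intervals on the reads and cover counting error only.

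Against all listed genes the EV difference of PFKFB4 and of ADM was of middling size. In log2 units, with 1 added to each normalized count, it was 1.34 for PFKFB4, -0.13 for NDRG1 and -1.22 for ADM (EV replicate 1 over EV replicate 2), and the median over the 1232 listed genes was 0.55. The difference was smaller in size than that of PFKFB4 in 56.7% of listed genes, than that of ADM in 53.2% and than that of NDRG1 in 12.3%. EV replicate 1 was the higher library in 61.5% of listed genes, as for PFKFB4. ADM lay toward the other end, with 11.3% of listed genes tilted more strongly to EV replicate 2. On this scale 565 of the 1232 genes differed by no more than 2-fold between the EV libraries, and 993 between the PHF19_OE libraries. Between the PHF19_OE libraries PFKFB4, NDRG1 and ADM differed by 1.15-, 1.08- and 1.09-fold in normalized counts.

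**Figure D2:**
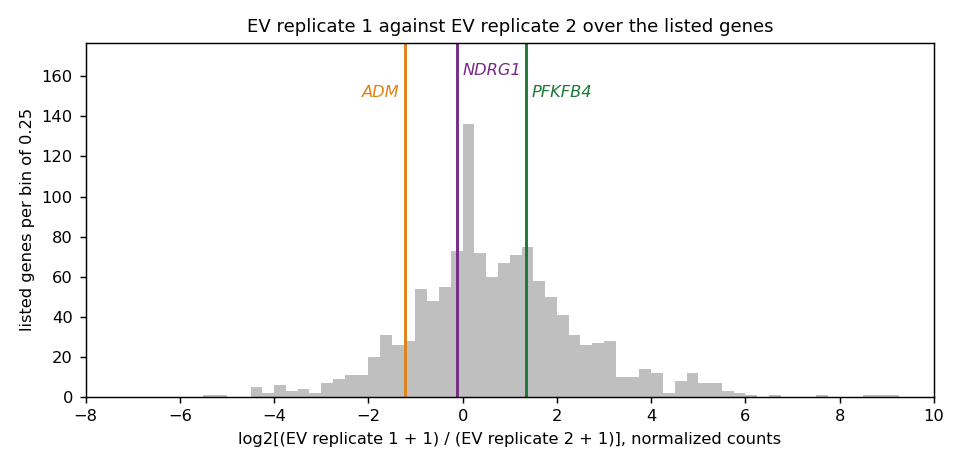
Distribution over the 1232 listed genes of log2 of EV replicate 1 over EV replicate 2 (x axis, normalized counts plus 1) with the number of genes per bin (y axis) and a line for each of the 3 genes. PFKFB4 lies to the right at 1.34, NDRG1 near 0 at -0.13 and ADM to the left at -1.22, all within the bulk of the distribution.

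Of 40 hypoxia-induced genes on the list used here, which includes the 3 genes, 8 were in the table. The 1232 listed genes stand beside 16881 over which the authors adjusted. The list was chosen with earlier results of these data known, so 8 of 40 is a description and not a test. All 8 had a lower mean in PHF19_OE cells, as had 63.6% of all listed genes, and 2 passed an adjusted p of 0.05 in the authors' deposited table, PFKFB4 and PPFIA4, both lower. Among all listed genes 14.7% were called lower and 23.8% in either direction, so that 2 of 8 does not set the list apart. The median deposited log2 fold change was -1.71 over the 8 genes and -1.33 over all listed genes. PPFIA4, a liprin family scaffold gene, had normalized counts of 115 and 155 in the PHF19_OE libraries and 391 and 610 in the EV libraries. It fell 3.71-fold, with an adjusted p of 0.0137 in the authors' deposited table, and EV replicate 2 was the higher EV library, as for ADM and NDRG1. The call of both genes was lost with edgeR's quasi-likelihood test and with DESeq2 on the listed genes with all 4 libraries.

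The other 4 genes were high in EV replicate 1 alone or mainly there. BHLHE40, a transcriptional repressor of the basic helix-loop-helix family, had normalized counts of 960 and 944 in the PHF19_OE libraries and 5851 and 1524 in the EV libraries. P4HA1, a catalytic subunit of collagen prolyl hydroxylase, had 1104 and 912 in the PHF19_OE libraries and 8622 and 1159 in the EV libraries. Its relative P4HA2 had 195 and 206 in the PHF19_OE libraries, against 911 and 238 in the EV libraries. BNIP3L, a mitophagy receptor, had 1221 and 999 in the PHF19_OE libraries and 4165 and 1177 in the EV libraries, and was the sole gene of the 8 whose groups overlapped. None of these passed, with adjusted p in the authors' deposited table between 0.0573 for BHLHE40 and 0.539 for BNIP3L.

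Set against each EV library, the 8 genes therefore split. The PHF19_OE mean was over 2-fold below EV replicate 1 in 6 of them, with ADM and NDRG1 as the exceptions, and over 2-fold below EV replicate 2 in 3, namely PFKFB4, PPFIA4 and ADM. PFKFB4 and PPFIA4 were the genes over 2-fold below both EV libraries. Among all listed genes 59.2% were over 2-fold below EV replicate 1 and 35.1% below EV replicate 2. Several of these genes overlap others, as BHLHE40 does BHLHE40-AS1 and P4HA2 does P4HA2-AS1 on the opposite strand, and the use of strand in counting is not given in the sources used here. Of the 6 genes with a promoter entry, 5 held the ACGTG or GCGTG core, beside 48.4% of all promoters.

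**Figure D3:**
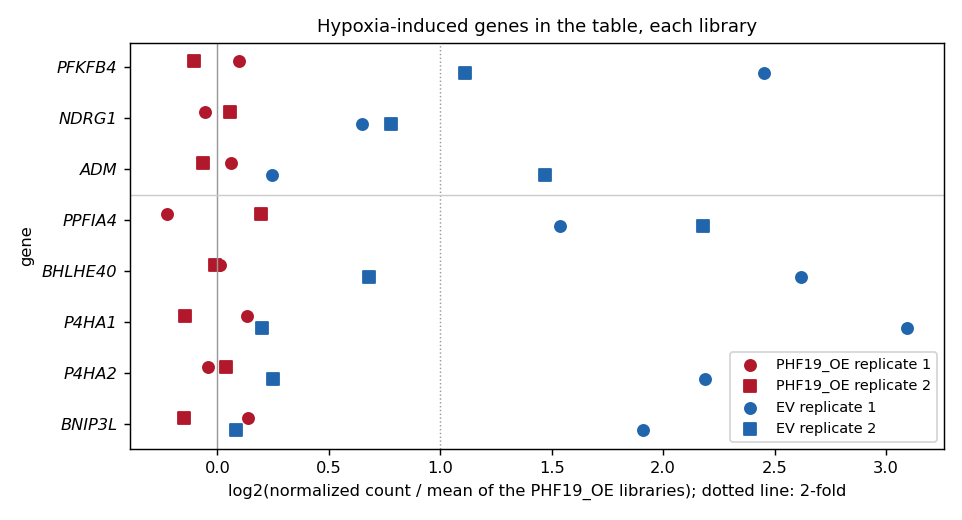
The 8 listed hypoxia-induced genes (y axis) with each library as log2 of its normalized count over the mean of the PHF19_OE libraries (x axis). The PHF19_OE points cluster at 0, EV replicate 1 lies far to the right for PFKFB4, BHLHE40, P4HA1, P4HA2 and BNIP3L, and EV replicate 2 lies farthest to the right for NDRG1, ADM and PPFIA4.

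Genes of the pathways around the 3 members were also looked up. The 1232 listed genes stand beside 16881 over which the authors adjusted, so most genes of any list are likely to be absent. None of 11 genes of the HIF system (the HIF subunits, their prolyl hydroxylases and VHL among them) and none of 25 glycolysis genes was listed. PFKFB4 was the sole listed gene of 4 in the PFKFB family and NDRG1 of 4 in the NDRG family. Of 11 genes of the adrenomedullin system, the receptor genes CALCRL and CALCR were listed beside ADM, and none passed. CALCRL, the receptor chain for adrenomedullin, had 36 and 6 reads in the PHF19_OE libraries and 442 and 7 in the EV libraries. CALCR, the calcitonin receptor, had 0 and 0 reads in the PHF19_OE libraries and 56 and 1 in the EV libraries. Both receptor genes had their most reads in EV replicate 1, whereas ADM was highest in EV replicate 2.

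Rapid-response genes (the immediate early transcription factors and heat shock proteins induced by stimulation or stress) also separated the EV libraries. Of 19 such genes 8 were listed, where 1232 genes are listed beside 16881 over which the authors adjusted. All 8 were more than 2-fold above EV replicate 2 in EV replicate 1, as were 40.7% of all listed genes. They were EGR2, NR4A1, NR4A2, NR4A3, FOSB and JUN, all transcription factor genes, and the HSP70 genes HSPA6 and HSPA1A, the last uncertain because a near-identical copy can share its reads. EGR2, NR4A3 and HSPA6 fell in the authors' deposited table, and the other 5 did not pass, where 14.7% of all listed genes were called lower. Their summed normalized counts were 2283 and 1090 in the PHF19_OE libraries and 24889 and 1431 in the EV libraries. JUN was the larger part of the sum in the PHF19_OE libraries and in EV replicate 2. The groups overlapped for FOSB, JUN, NR4A1 and NR4A2. NR4A1 and NR4A2 were lower in EV replicate 2 than in both PHF19_OE libraries. DNAJB9, a chaperone cofactor of the endoplasmic reticulum and the sole listed gene of 12 stress-response genes of that compartment and of the ATF4 pathway, had 4267 and 2655 in the PHF19_OE libraries and 20775 and 2542 in the EV libraries. PFKFB4 is high in the same EV library as these genes, and their part in its difference was not tested. NDRG1 and ADM were not higher in that library.

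The plasma cell identity of the line could be read only from listed markers. Of 12 plasma cell markers CD38 and POU2AF1 were listed, with summed normalized counts of 8387 and 8396 in the PHF19_OE libraries and 21739 and 15505 in the EV libraries. CD38 was called lower in PHF19_OE cells in the authors' deposited table, with an adjusted p of 0.00359. POU2AF1, the larger part of the sum, was lower but did not pass, with an adjusted p of 0.178. CD3E and TRAC, of 6 T and NK cell markers, summed to 2.40 and 5.12 in the PHF19_OE libraries and 85.5 and 40.1 in the EV libraries. Among 6 markers of myeloid or erythroid cells, ITGAM and HBB were listed and moved in opposite directions, both past the threshold in the authors' deposited table. The myeloid integrin gene ITGAM fell, with 0 and 0 normalized counts in the PHF19_OE libraries and 94.3 and 15.6 in the EV libraries. The globin gene HBB rose, with 233 and 180 in the PHF19_OE libraries and 58.6 and 24.4 in the EV libraries, and so exceeded PFKFB4 in the PHF19_OE libraries. CDH1, of 6 stromal, endothelial and epithelial markers, had 1.20 and 0 in the PHF19_OE libraries and 99.0 and 9.78 in the EV libraries. It was called lower in the authors' deposited table, with an adjusted p of 0.0426, whereas CD3E and TRAC did not pass. Among all listed genes 14.7% were called lower. CD38, POU2AF1, CD3E, TRAC, ITGAM and CDH1 were highest in EV replicate 1, as PFKFB4 was, whereas HBB was highest in the PHF19_OE libraries. The part of these markers in the results was not tested.

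The genes most like each of the 3 were found by the distance between centred profiles (log2 of normalized counts with 1 added) over the 4 libraries, among 880 other coding genes whose higher group averaged 50 or more normalized counts. Nearest to PFKFB4 were TDO2, a tryptophan-degrading dioxygenase gene (distance 0.126), ARHGEF25 (0.141), and LHX8, a LIM homeobox factor (0.185). TDO2 had 126 and 121 normalized counts in the PHF19_OE libraries and 642 and 273 in the EV libraries, the same order of libraries as PFKFB4 within the EV group.

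Nearest to NDRG1 were SLAIN1, a microtubule-associated gene (distance 0.0729), ABLIM1, an actin-binding LIM gene (0.109), and SMG1, a kinase gene of nonsense-mediated decay (0.128), whose value is uncertain because near-identical pseudogene copies can share its reads. SLAIN1 had 1394 and 1558 normalized counts in the PHF19_OE libraries and 2444 and 2589 in the EV libraries. Nearest to ADM were RBFOX2, a splicing factor gene (0.364), GCSAM, a germinal centre signalling gene (0.388), and EMP2, a membrane protein gene (0.394). EMP2 had 558 and 744 normalized counts in the PHF19_OE libraries and 800 and 1912 in the EV libraries. LHX8 passed in the authors' deposited table, with an adjusted p of 0.0496, and the other nearest genes named did not. These profiles have 4 points that share the group difference by which every gene was listed.

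The 3 hypoxia-responsive genes were not each other's nearest genes. ADM and NDRG1 lay 0.806 apart, and 20 candidates were closer to ADM than NDRG1 was, while 109 were closer to NDRG1 than ADM was. PFKFB4 lay 1.50 from NDRG1 and 2.03 from ADM, with 406 and 456 candidates closer to it. From the other side, 273 candidates were closer to NDRG1 than PFKFB4 was, and 311 were closer to ADM. What the 3 shared was a lower level in both PHF19_OE libraries, which the listing favours, while their EV profiles differed.

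**Figure D4:**
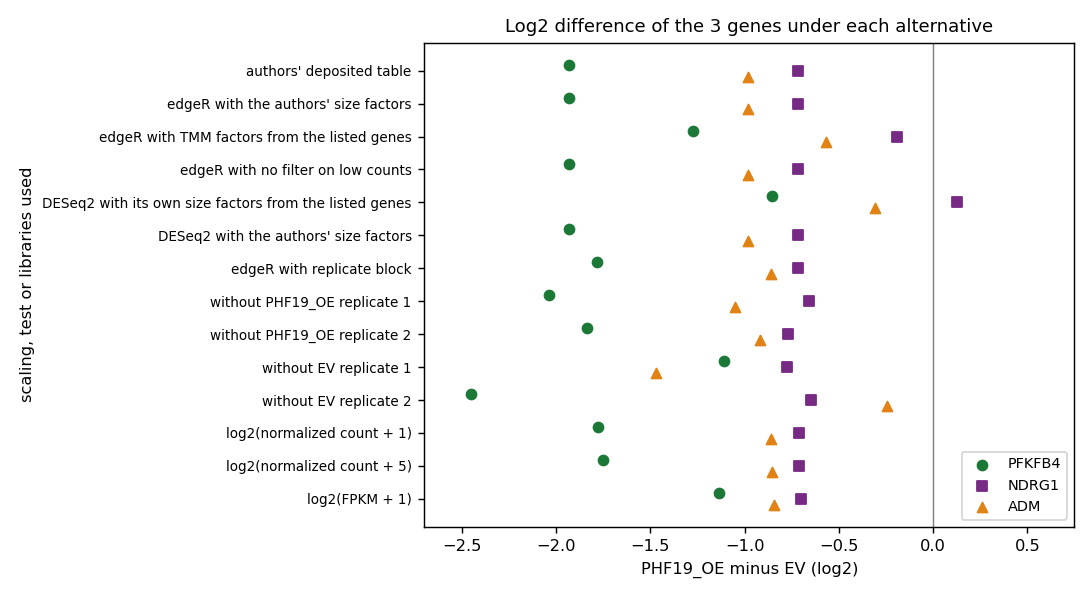
Log2 difference PHF19_OE minus EV (x axis) of PFKFB4, NDRG1 and ADM in the authors' deposited table and under each other test, scaling, pseudocount and left-out library (y axis). Every value but 1 is below 0: NDRG1 is at 0.13 with DESeq2's size factors from the listed genes. ADM and PFKFB4 move in opposite directions when either EV library is left out.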

How the data were processed

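RNA from AMO1 cells was extracted with a column kit and made into libraries with a SMARTER mRNA-Seq kit, per the labels' protocols. Per the submitters' processing notes, reads were placed on hg38. The aligner, the counter, the strand setting and the statistical test were not given in the sources used here. Per the file headers, the deposited table holds raw read counts, normalized values (a signal, each count over its library's factor, 0.832 and 0.977 for PHF19_OE, 1.26 and 1.02 for EV), FPKM values, gene lengths, a log2 fold change, and a p-value with its adjusted p-value. The deposited coordinates of the 8 listed hypoxia-induced genes equal those of GENCODE release 29 on the same build.

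The deposited adjusted p-values of 1208 genes were recovered (relative tolerance 1e-06) by a Benjamini-Hochberg adjustment over 16881 genes, and 24 further genes carry an adjusted p of 1. The table being a selection, the authors' adjusted p under 0.05 is the main test. The counts were refitted with edgeR 4.0.16 (quasi-likelihood test, filterByExpr) and DESeq2 1.42.0 in R 4.3.3 on the listed genes, adjusted over 16881 genes, and both scripts were tested on simulated data. These refits use genes selected on the same samples and are not independent evidence. With 2 libraries against 2, exact permutation allows no p under 0.333, so none was run. Where replicates share a culture, p-values reflect technical spread only.

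The members and all gene lists were chosen with earlier results of these data known. Named genes are the 3 members, the listed members of the gene lists, PHF19 and, for each member, the 3 coding genes nearest in profile. Values of immediate early and heat shock genes are given as a sum. Promoters come from RefSeq (GRCh38.p14), which matched 6 of the 8 listed hypoxia-induced genes.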

Additional observations from a re-analysis of the deposited data

How the results depend on the processing

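PFKFB4 kept its direction under all alternatives run and lost its call under most. Its log2 fold change was -1.93 with edgeR and with DESeq2 under the authors' size factors and with edgeR without a filter on low counts, -1.27 with TMM factors and -0.86 with DESeq2's own factors, none with an adjusted p under 0.05. On log2 of FPKM plus 1 it was -1.14, where the added 1 is large beside the levels. Leaving out 1 library moved it between -2.45 and -1.11 by edgeR. NDRG1 turned to 0.13 with DESeq2's own factors and lay between -0.78 and -0.65 with 1 library left out. ADM was at -0.57 with TMM factors and at -0.31 with DESeq2's own factors. Relative to the median of the listed genes (1066 of them with TMM, 1232 otherwise), ADM stood at 0.35 with the authors' scaling, 0.06 with TMM and 0.00037 with DESeq2's factors. The filter as well as the scaling therefore differs for TMM. PFKFB4 stood at -0.60, -0.64 and -0.55 in that order. With 1 library left out ADM lay between -1.47 and -0.25, the first without EV replicate 1 and the second without the other EV library. Between these 2 libraries, the EV replicate 1 over EV replicate 2 ratio of NDRG1, 0.915 on normalized counts, was 0.944 in FPKM. Of the genes on the hypoxia, glycolysis, PFKFB, NDRG and adrenomedullin lists, 2 were called in the authors' deposited table and 0 by edgeR with the authors' size factors (3 at an unadjusted p under 0.05), with TMM factors (0) or without a filter (5), and 0 by DESeq2 with the authors' size factors (5) or its own (0). Over all listed genes tested, an unadjusted p under 0.05 was reached by 522 of 1066, 499 of 1066 and 582 of 1232 in these edgeR settings. It was reached by 636 and 603 of 1232 in these DESeq2 settings. With 1 library left out the number ran from 0 to 8, being 2 without EV replicate 1 (ADM and PPFIA4) and 8 without EV replicate 2. Most listed genes were also called without EV replicate 2. Without EV replicate 1 the called share was larger over all listed genes than over the list genes. Neither number sets the list genes apart.

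With the replicate number as a block, edgeR gave PFKFB4 -1.79 (adjusted p = 0.899), NDRG1 -0.71 and ADM -0.86, and called 0 of the list genes and 109 listed genes, against 0 listed genes without the block (522 at an unadjusted p under 0.05; DESeq2 called 134). The samples share only a number: with 2 pairs, replicate differences correlated across genes at r = 0.208, and no label ties equal numbers together.

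With 2 libraries per group and a table of selected genes, a gene's absence from the table and the misses of NDRG1 and ADM do not show that they were alike in both groups. PFKFB4 in PHF19_OE cells rests on 135 and 138 reads, the fewest of the 3 genes.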
